A study of Drosophila melanogaster with 11 samples.

Results

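Adding the P transgene to larvae that already carry the act-Gal4 driver was examined in males, by comparing 2 arrays of P/act-Gal4 larvae with 2 arrays of act-Gal4 control larvae. These 4 arrays were chosen by their titles from the 11 of the series. Total RNA from whole Drosophila melanogaster larvae at the third instar was hybridised to Affymetrix Drosophila 2.0 probesets, each a set of short oligonucleotides that stands for a transcript. The act-Gal4 control males had the genotype y w; +/+; +/act-Gal4, and the P/act-Gal4 males carried P and the driver together, +/P-act in the genotype label and HP1-21/act-Gal4 in the design text. That text names line HP1-21 where the titles have P, so the 2 are taken here as the same. By title and genotype, P is the difference between the groups. Males with P and no driver, y w; +/+; HP1-21/+ (2 arrays), and females of each genotype were used only beside this comparison. The study describes 2 independent larval populations, but no label ties an array to one, so p-values measure the spread between arrays of a group. That spread was estimated over all 11 arrays of the series. By their replicate numbers, the act-Gal4 control males are called driver arrays 1 and 2 below and the P/act-Gal4 males both-transgene arrays 1 and 2. The strain label conflicts with these groups. It gives HP1-21+ for driver array 1 but HP1-21/act-Gal4, the name of the larvae with both transgenes, for driver array 2 and for every other array of the series. The descriptions call all arrays male. Titles, which match the genotype and gender labels, were used.

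Gal4 is a yeast activator that switches on genes placed behind its UAS sites, and act-Gal4 makes it in most tissues from an actin promoter. Line HP1-21 is taken, from knowledge of the study, to carry a UAS construct for RNA interference against HP1. HP1 binds methylated histone H3, packs pericentric heterochromatin and the small chromosome 4, and is also found at some active genes.

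Replicate arrays differed by a median of 0.0925 on the log2 scale in act-Gal4 control males and 0.0976 in males with both transgenes, against 0.165 between the means of these groups. Median intensity of the 6 male arrays lay between 15.5 and 15.8. On each of them 56.4% to 57.4% of probesets were at or under 4.5 on the log2 scale, a level called dim here; it was chosen and not tested, since no detection calls are given. A change against a dim group is read as a lower bound, and the size of a change between dim groups as uncertain. The testis tubulin gene betaTub85D stood at 9.56 and 9.55 in act-Gal4 control males and 8.81 and 8.92 in P/act-Gal4 males, against 3.502 and 3.83 in act-Gal4 control females. The control probesets for the 3′ and 5′ ends of actin differed by 4.14 and 4.04 on the log2 scale in act-Gal4 control males and by 3.00 and 2.89 in P/act-Gal4 males. For eIF-4a the differences were 4.30 and 4.34 against 3.66 and 3.72, while for GAPDH they were 3.23 and 3.40 against 3.36 and 3.26. By their 3′ and 5′ ends, actin and eIF-4a thus separated the groups, whereas GAPDH overlapped, as did 18S ribosomal RNA. Between the 3′ end and the middle, eIF-4a differed by 1.24 and 1.13 against 0.97 and 1.09. There GAPDH differed by 1.44 and 1.49 against 1.53 and 1.68, and 18S by −0.11 and −0.014 against 0.18 and 0.0079. Each of these separated the groups. In P control males the 3′ and 5′ ends differed by 4.06 and 4.02 for actin. For eIF-4a they differed by 4.95 and 4.98 and for GAPDH by 4.64 and 4.54. The part of these differences in the results below was not tested. Because whole larvae were used, fewer cells of a type and less RNA per cell cannot be told apart.

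The HP1 transcript was lower in males with both transgenes. Its single probeset, for the HP1 gene on arm 2L, read 8.35 and 8.39 (log2 of intensity) in act-Gal4 control males and 7.84 and 7.52 in P/act-Gal4 males. Both P/act-Gal4 arrays lay below both driver controls, and also below the P controls at 8.03 and 8.07. The change was −0.69 ± 0.109 (SE, n = 2 and 2), a 1.61-fold fall, with a limma adjusted p of 0.000589. Leaving out either P/act-Gal4 array moved it to −0.85 or −0.53.

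Among genes for proteins of heterochromatin, more fell than rose. Of 31 measured genes on a list of heterochromatin proteins that includes HP1 itself, 16 fell and 4 rose at a limma adjusted p under 0.05, with a median log2 change of −0.31. Over all 11982 genes 17.1% fell and 18.2% rose, with a median of −0.013, and the counts of the lists below stand beside these shares. HDAC1, the histone deacetylase also called Rpd3, read 6.17 and 6.08 in act-Gal4 control males and 5.24 and 5.12 in P/act-Gal4 males, a change of −0.95 ± 0.0952 (adjusted p = 2.68e-05). Incenp, a subunit of the chromosomal passenger complex, read 5.98 and 5.86 against 4.998 and 4.96 (−0.94 ± 0.128, adjusted p = 0.000211). HP1b, a paralogue of HP1, read 6.09 and 5.99 against 5.17 and 5.19 (−0.86 ± 0.105, adjusted p = 0.000102). In each of these genes the arrays of the groups did not overlap, which was so for 70.3% of all genes. The chromatin assembly subunit Caf1-55 changed by −0.84, and LBR, the lamin B receptor, by −0.87 at a dim level in both groups. Among list members picked after their values were seen, HP1c changed by −0.75, HP4 by −0.66 and HP6 by −0.57. Su(var)3-7 read 4.42 and 4.41 against 4.33 and 4.17 and was not called. Also not called were HP1e (0.23), HP5 (0.012) and rhi (−0.12), all dim in both groups. The rises, seen after the fact in Su(var)2-HP2, mod(mdg4), sov and ADD1, ran from 0.36 to 0.53, with ADD1 dim in both groups, and their number dropped to 1 or 2 when any 1 of the 4 arrays was left out. Against the P control, 11 members of the list were lower and 4 higher, beside 14.1% and 18.3% of all genes. HDAC1 changed by −0.33, HP1b by −0.54, Incenp by −1.03 and HP1c, uncalled, by −0.34. For HDAC1 the P control differed from the act-Gal4 control by −0.61. The comparison with the P control uses the same P/act-Gal4 arrays, so its counts are given beside the first and not as a second observation.

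**Figure D1:**
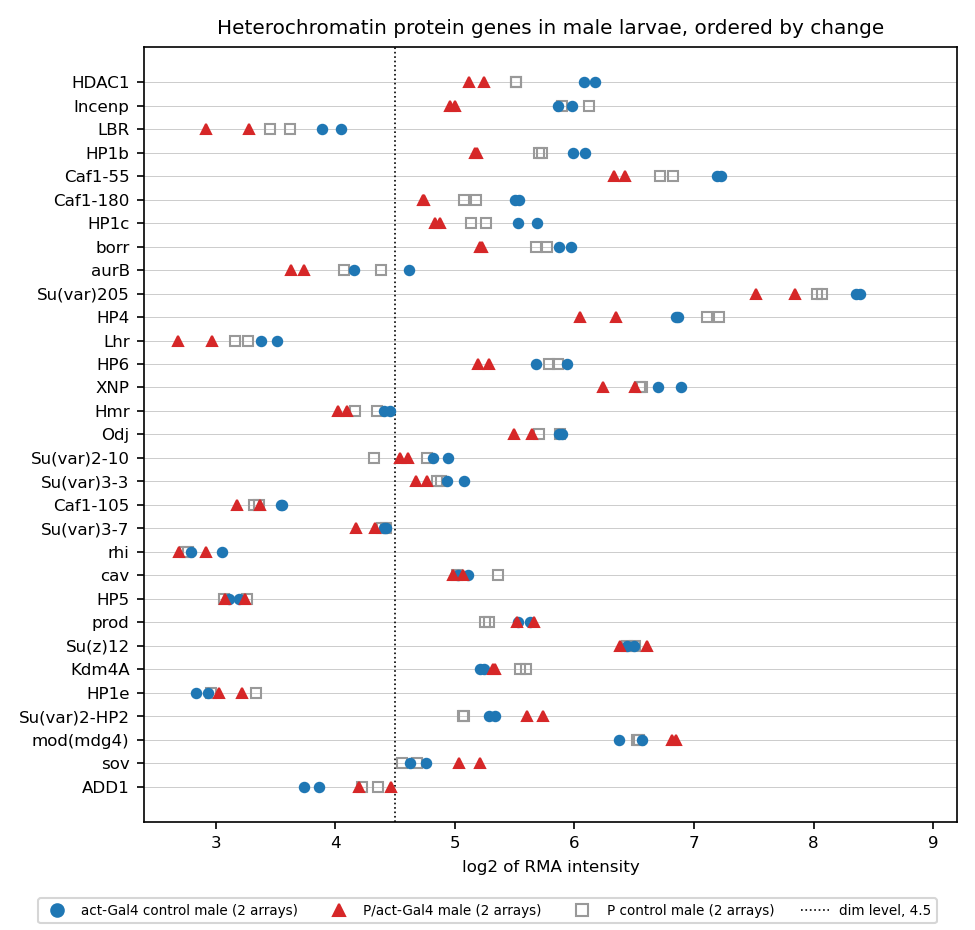
Signal of the 31 measured heterochromatin protein genes on each male array (x axis, log2 of RMA intensity, 1 point per array), with genes ordered from the largest fall to the largest rise and the dotted line at the dim level of 4.5. In the upper rows, including the HP1 gene, the P/act-Gal4 triangles sit to the left of the act-Gal4 circles, and 10 of the 31 genes are dim in both groups.

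Among chromatin genes outside that list, the histone variant gene His2Av fell from 8.86 and 8.85 to 7.87 and 7.78 (−1.02 ± 0.0856, adjusted p = 7.11e-06). The centromeric histone gene cid (−0.20) and the embryonic linker histone gene BigH1 (−0.42) were not called, and both were dim. JIL-1, the histone H3 kinase that limits the spread of heterochromatin, rose by 0.97 ± 0.17 (adjusted p = 0.0012), from 4.42 and 4.58 to 5.37 and 5.57. Of the other dosage compensation genes, the helicase gene mle rose by 0.57 at a dim level and Clamp fell by 0.45, a call lost without both-transgene array 1 (−0.35, adjusted p = 0.0530). The remaining members, msl-1 (0.019), msl-2 (0.052), msl-3 (0.36) and mof (−0.33), were not called, and a further probeset of msl-3 was called in the opposite direction to its first. In the RNA interference and small RNA machinery, 5 of 20 genes rose and 4 fell, close to the shares over all genes. Here gw, a subunit of the silencing complex encoded on chromosome 4, rose by 0.57 (adjusted p = 0.000956). Without any 1 of the 4 arrays the rises on that list numbered 2, and the falls numbered 2 without driver array 2 and 1 without both-transgene array 1.

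Chromosome 4 is the arm that HP1 is known to coat along its length. Rises were called in 23 of its 65 measured genes (35.4%) and falls in 4 (6.15%), beside 18.2% and 17.1% of all genes. The median change was 0.19, against medians between −0.023 and −0.0054 on the X, 2L, 2R, 3L and 3R. In either direction 41.5% of its genes were called, against 34.5% to 36.5% on those arms. The rises on chromosome 4 included unc-13, a synaptic vesicle priming factor, from 5.95 and 5.93 to 6.88 and 7.02 (1.01 ± 0.0995, adjusted p = 2.24e-05). Picked after their values were seen, dati rose by 0.94, Gyf by 0.81 and Zip102B by 0.76. The number of falls was 2 without driver array 2 or without both-transgene array 1, and 7 with limma's trend option or with array weights. The median of chromosome 4 was 0.22 against the P control. Genes known to lie in pericentric heterochromatin showed no common direction. Of 15 measured, 4 rose and 3 fell (26.7% and 20.0%), beside 18.2% and 17.1% of all genes. Snap25, a synaptic protein gene, rose by 0.83 at a dim level, and the chitinase gene Cht10 fell by 2.05. The rises numbered 2 without driver array 1, driver array 2 or both-transgene array 1, and 1 without both-transgene array 2.

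Across the array, 5275 of 18769 probesets differed between P/act-Gal4 and act-Gal4 control males at an adjusted p under 0.05 by limma (28.1%). Of these, 2870 were higher (15.3%) and 2405 lower (12.8%). A change of at least 2-fold was called in 549 probesets (2.93%), 315 higher (1.68%) and 234 lower (1.25%). With 1 probeset per gene, 4230 of 11982 genes were called (35.3%). Leaving out both-transgene array 2 gave 1419 higher genes in place of 2186.

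The largest falls among named genes included genes of the cuticle, the salivary gland and the gut. The larval cuticle protein gene Lcp9 read 11.20 and 11.26 in act-Gal4 control males and 6.70 and 6.71 in P/act-Gal4 males, a 23.1-fold fall (−4.53 ± 0.0858, adjusted p = 6.61e-11). The P controls lay in between, at 9.15 and 9.05. ImpE2, a secreted protein gene switched on by the moulting hormone ecdysone, went from 7.34 and 7.27 to a dim 3.25 and 3.23, at least 16.8-fold (−4.07 ± 0.091, adjusted p = 2.87e-10). nol went from 8.37 and 8.22 to 3.75 and 3.68 and Alp7, an alkaline phosphatase gene, from 7.08 and 7.20 to 3.63 and 3.70, at least 23.9-fold and 11.1-fold. Nplp4, a neuropeptide-like precursor gene, fell 6.33-fold, from 10.84 and 10.83 to 8.15 and 8.20. The non-coding RNA genes lncRNA:CR33938 and lncRNA:CR33948 fell 5.09-fold and 4.94-fold.

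The largest rise among named genes was that of 18SrRNA-Psi:CR41602, an 18S ribosomal RNA pseudogene annotated on the X. It stood at a dim 3.57 and 3.68 in act-Gal4 control males and at 7.74 and 7.64 in P/act-Gal4 males, at least 16.7-fold (4.06 ± 0.104, adjusted p = 6.17e-10). Its sequence is close to that of the repeated 18S genes, so the probeset may also report those. Jig rose 6.04-fold, from 4.84 and 4.61 to 7.29 and 7.35. The gene e, for the enzyme that joins β-alanine to dopamine for tanning, rose from 8.39 and 8.44 to 10.48 and 10.43, a 4.1-fold change (2.04 ± 0.093, adjusted p = 6.27e-08). St4, a sulfotransferase gene, rose 3.45-fold, Sid, a stress-induced nuclease gene, 3.15-fold and Sarm, whose product triggers axon breakdown, 2.79-fold. For path, an amino acid transporter gene, the values were 5.77 and 6.23 against 7.64 and 7.91, and for the receptor gene mthl4 6.65 and 6.61 against 8.14 and 8.17. The P controls read 7.40 and 7.79 for path and 8.19 and 8.26 for mthl4, and neither gene was called against them (0.18, adjusted p = 0.508, and −0.072, adjusted p = 0.61, by limma). Sarm has a further probeset with an uncalled change of the opposite sign.

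**Figure D2:**
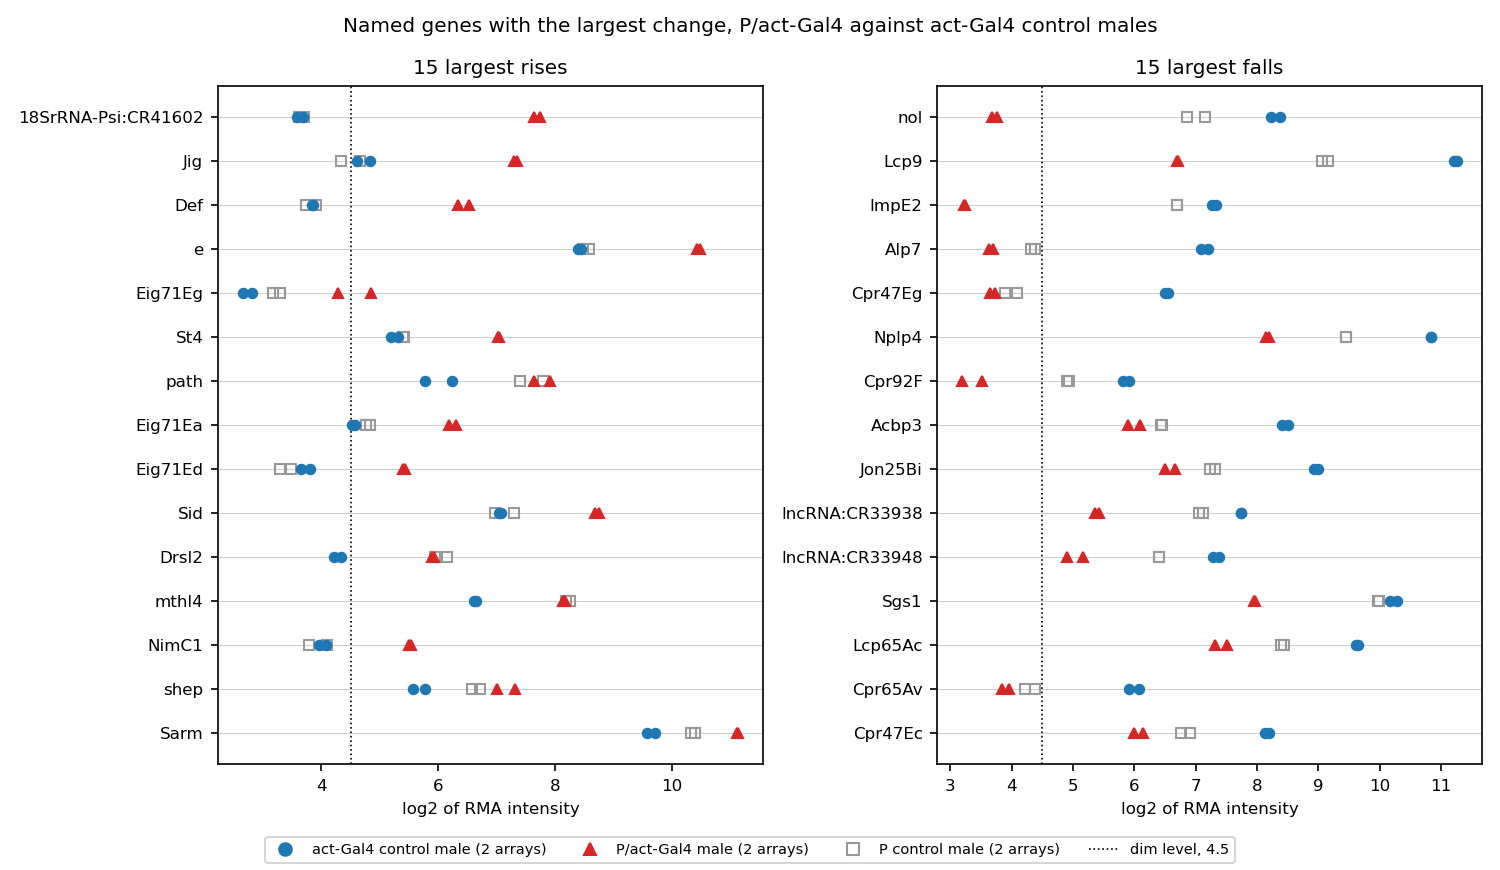
Signal of the 15 named genes with the largest rises (left) and the 15 with the largest falls (right) on each male array, as log2 of RMA intensity, with the dotted line at the dim level. The P control squares lie with the P/act-Gal4 triangles for Drsl2 and mthl4 but with the act-Gal4 circles for Def, e and St4.

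Among the 4720 tested probesets with no gene in the platform table, 4 are given by their IDs, chosen after their values were seen. Probeset 1626205_s_at went from a dim 3.84 and 4.15 to 11.14 and 11.21, at least 145-fold, the largest change on the array. Its P controls read 4.76 and 4.66. Probeset 1625050_s_at rose from 7.58 and 7.56 to 11.30 and 11.32, and 1622893_at fell from 7.77 and 7.95 to 4.78 and 5.06. Probeset 1634353_at lay at 12.93 and 12.97 in act-Gal4 control males, 9.99 and 9.98 in males with both transgenes and 7.68 and 7.46 in P controls, so that it was lower than one control and higher than the other.

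The insect cuticle is built of chitin and of cuticle proteins, which epidermal cells make in waves before each moult under the control of ecdysone. Of 60 measured cuticle protein genes, 20 fell and 2 rose, and 10 fell at least 2-fold, as did 1.62% of all genes, while 37 were dim in both groups. The rises numbered at most 1 when any 1 of the 4 arrays was left out. After Lcp9 the deepest were Cpr47Eg, from 6.51 and 6.55 to 3.65 and 3.73, Cpr92F, from 5.81 and 5.91 to 3.19 and 3.51, and Lcp65Ac, from 9.61 and 9.64 to 7.52 and 7.32. Cpr47Ec changed by −2.09, Cpr65Av by −2.10 and Cpr78Cc by −2.04. In Cpr47Eg, Cpr92F, Cpr65Av and Cpr78Cc the P/act-Gal4 males were dim, so these falls are lower bounds. The P controls of Cpr47Eg and Cpr78Cc were dim as well, and Lcp65Ac changed by −0.999 against the P control. The summed intensity of the cuticle list was 15894 and 16118 in act-Gal4 control males, 12711 and 12913 in males with both transgenes and 12510 and 12538 in P control males.

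Among genes for chitin and tanning enzymes, 10 of 35 rose and 10 fell. The chitinase gene Cht10 fell 4.13-fold, from 9.08 and 9.09 to 7.10 and 6.98, whereas the chitinase genes Cht4 and Cht5 rose by 1.17, from a dim level, and 0.93. The chitin-binding genes obst-A and verm fell by 1.17 and 0.97. Rises numbered 6 without driver array 1, and falls numbered 6 without driver array 2.

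Ecdysone acts through a receptor and a cascade of early transcription factors. Of 22 measured regulators, 5 rose and 2 fell (22.7% and 9.09%), beside 18.2% and 17.1% of all genes. The nuclear receptor gene ftz-f1 rose from 6.56 and 6.41 to 7.65 and 7.63 (1.15 ± 0.113, adjusted p = 2.23e-05), and against the P control it changed by 0.12. The early gene br rose by 1.02 on its brightest probeset, while another of its probesets was called in the opposite direction. The ecdysone hydroxylase gene shd rose by 0.59, and Eip78C fell by 0.67 to a dim level. The receptor gene EcR rose by 0.58, a call lost without driver array 1 (0.47, adjusted p = 0.0884) or both-transgene array 2 (0.44, adjusted p = 0.1003). The falls numbered 1 without driver array 1 or both-transgene array 1.

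Downstream, 14 of 29 ecdysone-induced and salivary genes fell and 6 rose. Sgs1, a glue protein gene of the larval salivary gland, fell 4.82-fold, from 10.17 and 10.28 to 7.95 and 7.97, with the P controls at 9.98 and 9.99. Other glue genes, read after the fact, changed less, Sgs8 by −0.78, Sgs3 by −0.47, Sgs5 by −0.44 and Sgs7 by −0.42. Sgs4 changed by −0.064 and was not called. From the P control, Sgs8 differed by −0.40, Sgs3 by −0.036, Sgs7 by −0.15 and Sgs5 by 0.29. Relative to that control 10 genes of the list were higher and 10 lower, beside 18.3% and 14.1% of all genes. The Eig71E cluster on 3L holds late ecdysone-induced genes for small secreted peptides. Eig71Ea rose from 4.58 and 4.52 to 6.30 and 6.18, Eig71Ed from 3.80 and 3.66 to 5.39 and 5.43 and Eig71Eg from 2.65 and 2.81 to 4.28 and 4.84, the latter pair from a dim level, while Eig71Ef rose by 1.16 and was dim in both groups. Eig71Ee, a member of the cluster noted after its values were seen, was bright and fell by 0.47. The other measured members, Eig71Eh, Eig71Ei, Eig71Ej and Eig71Ek, were all dim in both groups and not called, with changes from −0.23 to 0.14. Summed intensity of the list was 52632 and 53249 in act-Gal4 control males against 37991 and 38016 in P/act-Gal4 males and 43991 and 44079 in P control males.

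Most genes of the respiratory chain fell. The respiratory chain passes electrons from complex I through complexes II, III and IV and drives the ATP synthase, complex V. Of 27 measured complex I genes, 23 fell, with a median change of −0.52, and the range over the list was −1.16 to 0.053. ND-MLRQ read 11.05 and 11.06 in act-Gal4 control males and 9.80 and 9.99 in P/act-Gal4 males (−1.16 ± 0.0924, adjusted p = 5.14e-06). ND-75, the large iron-sulfur subunit, read 8.37 and 8.42 against 7.60 and 7.499 (−0.85 ± 0.0924, adjusted p = 4.67e-05). Of 31 genes of complexes II to V, 25 fell and 1 rose, with a median of −0.53. They included the complex II membrane subunit SdhC (−0.95), the complex III Rieske protein RFeSP (−1.03), the complex IV subunits levy (−1.08) and COX5A (−0.88) and the ATP synthase subunit ATPsynD (−0.90). RFeSP has a further probeset with an uncalled change of the opposite sign. The rise was that of UQCR-11, from 4.61 and 4.90 to 5.79 and 5.99 (1.13 ± 0.128, adjusted p = 5.85e-05). Against the P control the medians were −0.35 for complex I and −0.31 for complexes II to V. Lower than that control were 16 and 18 genes, beside 14.1% of all genes.

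In glycolysis and sugar metabolism 11 of 19 genes fell and 2 rose, with a median of −0.47. Pfk, Ald1, Tpi, Pgk and Eno, named for their large changes, moved the same way. They do not cover every step of the path. Pfk, for phosphofructokinase, read 8.52 and 8.50 against 7.40 and 7.44 (−1.09 ± 0.0958), and Ald1, for aldolase, 10.12 and 9.99 against 8.65 and 8.90 (−1.28 ± 0.115). Tpi changed by −1.07, Pgk by −0.94 and Eno by −0.89, and limma's adjusted p of these 5 genes lay between 8.19e-06 and 3.13e-05. Hexokinase, which starts the path, went the other way, with Hex-A rising from 8.16 and 8.26 to 9.27 and 9.23. Rises numbered 1 without driver array 1 or both-transgene array 2. The median of the list against the P control was −0.13, and Pfk changed by −0.37 and Pgk by −0.19. The tricarboxylic acid cycle, which lies between these paths, had 10 measured genes and a median of −0.022. Its ScsbetaA rose by 0.58 and its mAcon1 fell by 0.40, a call lost without driver array 2 (−0.34, adjusted p = 0.0828) or both-transgene array 2 (−0.35, adjusted p = 0.0720). Idh read 9.63 and 9.68 against 9.53 and 9.49, Mdh1 11.42 and 11.47 against 11.45 and 11.46 and Ogdh 8.96 and 8.98 against 9.13 and 9.38, and Idh3a, Idh3b, Idh3g, muc and Scsalpha1 changed by 0.17, −0.20, 0.14, −0.053 and −0.29; limma's adjusted p for these 8 lay between 0.0518 and 0.954.

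In lipid metabolism, 11 of 28 genes fell and 6 rose. The deepest falls were in acyl-CoA binding proteins, small carriers of activated fatty acids. Acbp3 read 8.41 and 8.50 in act-Gal4 control males and 5.89 and 6.09 in P/act-Gal4 males, a 5.53-fold fall, with the P controls at 6.45 and 6.44. Acbp5, Acbp4 and Acbp2 fell 3.92-fold, 3.12-fold and 2.06-fold. Acbp4 changed by 0.25 and Acbp2 by 0.66 against the P control. InR, the insulin receptor gene, rose from 4.89 and 5.11 to 6.11 and 6.28 (1.19 ± 0.111, adjusted p = 1.52e-05), and Sik3, a kinase gene of fasting signalling, rose by 0.82 on its brightest probeset with another probeset uncalled in the opposite direction. Falls numbered 7 without driver array 2.

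The proteasome, which breaks down tagged proteins, has a core of alpha and beta subunits and a cap of Rpt ATPases and Rpn subunits. Of 26 measured genes, 22 fell, with a median of −0.46 and a range of −0.95 to 0.12. The 6 deepest were cap genes. Rpt2 read 8.81 and 8.76 against 7.82 and 7.86 (−0.95 ± 0.0939, adjusted p = 2.40e-05) and Rpn12 8.71 and 8.74 against 7.80 and 7.86 (−0.90 ± 0.0859, adjusted p = 1.82e-05). Rpt3 changed by −0.94, Rpn7 by −0.80, Rpn5 by −0.70 and Rpn3 by −0.69. The P controls were close to the P/act-Gal4 males, at 8.11 and 7.95 for Rpt2 and 7.85 and 7.90 for Rpn12. The median against the P controls was −0.069 with 4 genes lower, beside 14.1% of all genes. Summed intensity of the list was 19508 and 19944 in act-Gal4 control males, 14488 and 14558 in males with both transgenes and 15122 and 16036 in P control males. The P/act-Gal4 arrays were below both controls, and nearer to the P control than to the driver control.

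DNA replication and cell cycle genes also fell, 26 of 49 measured against 1 that rose, with a median of −0.37. The replicative helicase subunit gene Mcm6 read 6.57 and 6.501 against 5.36 and 5.41 (−1.15 ± 0.107, adjusted p = 1.51e-05). Mcm5 changed by −1.02 and its partner dpa, the Mcm4 gene, by −1.05, both to a dim level, and the mitotic genes CycB3 and fzy by −0.995 and −1.05. A further fzy probeset had an uncalled change of the opposite sign. PCNA, the polymerase clamp gene, changed by −0.95. Against the P control 21 genes of the list were lower, beside 14.1% of all genes. The median of the list was then −0.23, and Mcm6 changed by −0.81 and CycB3 by −0.91. The single rise was lost without either driver array or without both-transgene array 2.

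Of 80 ribosomal protein genes on the list, 29 were measured, and these were bright throughout. Among them 15 rose and 2 fell, with a median of 0.26. RpL37A rose by 0.55 ± 0.0942 and RpLP1 by 0.43 ± 0.0843, while RpLP0, for the stalk protein that carries RpLP1, fell by 0.54 (adjusted p = 0.00105, 0.00259 and 0.000805 by limma). RpL17, RpL28 and RpS26 changed by 0.38, 0.38 and 0.39. The number of rises depended on single arrays and on scaling. It was 5 without driver array 1, 5 without driver array 2, 7 without both-transgene array 1, 3 without both-transgene array 2 and 7 after a further quantile normalization, while the falls numbered 1 under each of these. RpL17 and RpL28 each lost the call under 1 or more of these settings, and RpS26 under the quantile normalization. In ribosome biogenesis 5 of 28 genes rose and 4 fell (17.9% and 14.3%), beside 18.2% and 17.1% of all genes. Fib, the fibrillarin gene of the nucleolus, changed by −0.65. The rises of that list numbered at most 1 without either driver array or both-transgene array 2, and its falls 2 without driver array 2.

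Genes for secreted growth and timing signals rose. Of 20 measured, 12 rose and 1 fell, with a median of 0.43, and 8 were dim in both groups. Ilp8, a relaxin-like peptide that damaged discs release to delay metamorphosis, read a dim 2.87 and 3.02 in act-Gal4 control males and 4.39 and 4.29 in P/act-Gal4 males (1.40 ± 0.116, adjusted p = 6.75e-06). Both values lie under 4.5, so the size of this change is uncertain. CCHa2, a nutrient-dependent peptide of the fat body, rose from 5.42 and 5.47 to 6.46 and 6.57, and the growth-blocking peptide genes Gbp1 and Gbp2 rose from 4.59 and 4.63 to 5.60 and 5.57 and from 6.03 and 6.11 to 6.94 and 6.91. Adgf-D, an adenosine deaminase growth factor gene, rose by 1.09 from a dim level and the cytokine gene upd1 by 0.89 at a dim level. Against the P control CCHa2 changed by 1.501, Gbp1 by 1.55 and Gbp2 by 1.41. The number of falls was 2 without driver array 1 and 3 with male arrays only.

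**Figure D3:**
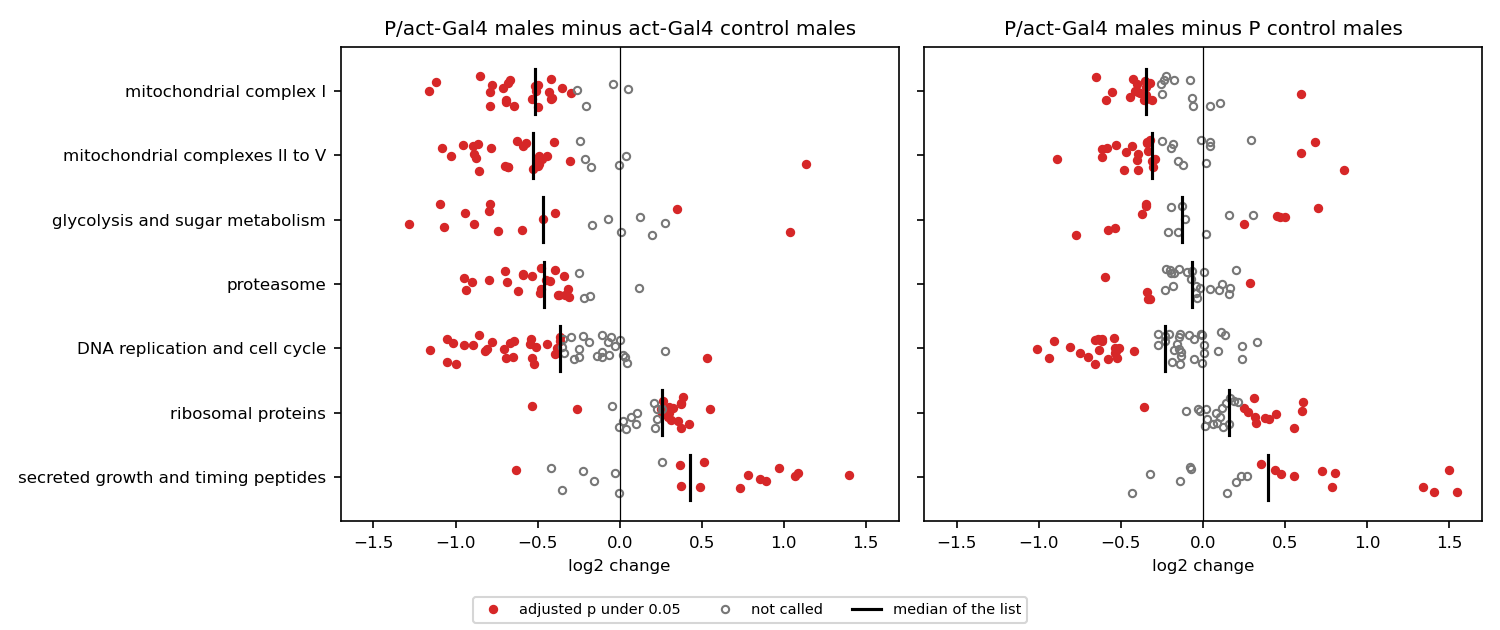
Log2 change of every measured gene on 7 lists (1 point per gene, with vertical jitter), against act-Gal4 control males on the left and against P control males on the right, where both panels share the P/act-Gal4 arrays. Proteasome genes centre on −0.46 in the left panel and on −0.069 in the right panel, whereas the DNA replication and respiratory lists lie below 0 and the secreted peptides above 0 in both.

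Immune genes moved in both directions. Of 31 antimicrobial and immune genes, 7 rose and 8 fell, and 3 rose and 4 fell at least 2-fold, beside 1.79% and 1.62% of all genes. Def, the antibacterial peptide defensin, read a dim 3.86 and 3.84 in act-Gal4 control males, 6.33 and 6.53 in males with both transgenes and 3.74 and 3.91 in P controls, at least 5.98-fold higher with both transgenes (2.58 ± 0.0998, adjusted p = 1.42e-08). The antifungal peptide gene Drs read 8.30 and 8.37 against 6.69 and 6.67 (−1.65 ± 0.101, adjusted p = 5.89e-07), and Mtk, another antifungal peptide gene, fell by 1.31 to a dim level. PGRP-SC2, an amidase gene that dampens the immune response of the gut, read 9.03 and 9.12 against 7.12 and 6.91, and the gut lysozyme gene LysS 9.75 and 9.66 against 8.06 and 7.96. Drsl2 rose to 5.89 and 5.93 from a dim 4.33 and 4.22, with the P controls as high, at 6.15 and 5.95.

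Blood cell genes moved in both directions. Of 31 hemocyte and melanization genes, 9 rose and 6 fell, beside 18.2% and 17.1% of all genes. Compared with the P control, 18 were higher and 0 lower, beside 18.3% and 14.1% of all genes. NimC1 and Sr-CI, receptor genes of the phagocytic plasmatocytes, were named for their large changes and do not stand for all receptors of these cells. NimC1 rose from 3.96 and 4.08 to 5.54 and 5.50 (1.499 ± 0.109, limma adjusted p = 2.58e-06) and Sr-CI by 1.11. NimB1 rose by 1.05 and Pvr, the receptor for blood cell survival signals, by 0.97. NimC1, Sr-CI and NimB1 were dim in act-Gal4 control males, so their rises are lower bounds. PPO1 and PPO2, the prophenoloxidase genes of crystal cells, fell, PPO1 from 6.67 and 6.78 to 5.23 and 5.16 and PPO2 from 8.81 and 8.82 to 7.72 and 7.74. Their P controls were lower still, at 3.83 and 3.56 and 6.27 and 6.34, so that against them these genes changed by 1.503 and 1.42. Summed intensity of the list was 3106 and 3132 in act-Gal4 control males, 3001 and 3060 in males with both transgenes and 2067 and 2116 in P control males.

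Stress genes showed a mixed picture. Among 14 chaperone genes 3 rose and 6 fell. The mitochondrial chaperone gene Hsp60A fell by 1.06, from 9.28 and 9.33 to 8.20 and 8.30. Hsp68 read 7.96 and 7.89 in act-Gal4 control males, 7.07 and 6.98 in males with both transgenes and 10.33 and 10.32 in P controls. stv, a co-chaperone gene, rose by 0.90 and was lower than the P control (−0.65). The falls numbered 3 without either driver array or without both-transgene array 2. In oxidative and unfolded protein stress, 10 of 25 genes fell and 4 rose, with the metal-binding MtnA from 11.42 and 11.46 to 10.42 and 10.46 and catalase, Cat, from 9.81 and 9.78 to 9.02 and 8.87. Among 23 apoptosis and DNA damage genes, 8 rose and 2 fell. mre11, for a nuclease of double-strand break repair, rose by 1.05 ± 0.125 (adjusted p = 8.51e-05), and the caspase gene Dredd by 0.89, while the effector caspase gene Dcp-1 fell by 0.76 to a dim level. Those rises numbered 4 without both-transgene array 2, and the falls 1 without driver array 1, both-transgene array 1 or both-transgene array 2.

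Marker genes of the larval organs gave the following levels. In the midgut, 19 of 51 digestion genes fell and 11 rose. The 3 neighbouring Jonah serine protease genes Jon25Biii, Jon25Bii and Jon25Bi on 2L, adjacent among measured genes in the order of RefSeq's Release 6 plus ISO1 MT table, changed by −1.705, −1.25 and −2.38. Jon25Bi read 8.996 and 8.92 against 6.496 and 6.67, with the P controls at 7.31 and 7.24. Looked for after the values were seen, 2 further runs of 3 adjacent genes fell at least 2-fold, CG11349, CG7465 and CG11350 on 3L (−1.74 to −1.02) and CG33333, CG42834 and CG14332 on 3R (−2.27 to −1.20). LManI, a lysosomal mannosidase gene, rose by 1.37. Summed intensity of the midgut list was 45080 and 45437 in act-Gal4 control males against 41460 and 41564 in P/act-Gal4 males, and lower still in P control males, at 40360 and 40599. Compared with the P control, 21 midgut genes were higher and 13 lower, beside 18.3% and 14.1% of all genes.

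In muscle 11 of 22 genes fell and 3 rose, with a median of −0.37. The troponin T gene up, the tropomyosin gene Tm2 and the paramyosin gene Prm fell by 1.27, 1.26 and 1.19, and Argk1, for arginine kinase, from 12.63 and 12.59 to 11.42 and 11.39. Summed intensity of the muscle list was 39951 and 40414 in act-Gal4 control males, 25993 and 26834 in males with both transgenes and 28199 and 28207 in P control males. Muscle is rich in mitochondria and glycolytic enzymes, and the part of this difference in the falls of those genes was not tested. The muscle median against the P control was −0.031. Msp300, a giant muscle protein gene, rose by 0.81 on its brightest probeset and had another probeset uncalled in the opposite direction.

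Of 18 fat body and hemolymph genes 6 fell and 3 rose. The clotting protein gene fon fell from 11.30 and 11.32 to 10.32 and 10.32, and the lipid transfer particle gene Apoltp rose from 6.31 and 6.24 to 7.35 and 7.34. The falls numbered 2 without any 1 of the 4 arrays, and 10 with limma's trend option. Summed intensity was 46010 and 46234 in act-Gal4 control males against 40008 and 40675 in P/act-Gal4 males, and lower still in P control males, at 34599 and 35127. Compared with the P control, 7 of these genes were higher and 1 lower, beside 18.3% and 14.1% of all genes. The list's median was then 0.18.

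In the nervous system 12 of 33 genes rose and 3 fell, and 17 were dim in both groups. fne, a neuronal RNA-binding protein gene, rose by 0.88 and the potassium channel gene Sh by 0.71, with another Sh probeset uncalled in the opposite direction, whereas the secretion gene Rop fell by 0.73. Summed intensity of this list nevertheless was lower with both transgenes, 2484 and 2486 against 3823 and 3936, with 2866 and 2918 in P control males. That sum follows the brightest members, among them Nplp4, which had the deepest change of the list (−2.66). It does not show a fall across the list, whose median change was 0.17. In the imaginal discs 8 of 23 patterning genes fell and 1 rose. en, the engrailed gene of posterior compartments, fell from 6.44 and 6.35 to 5.24 and 5.16 (−1.20 ± 0.0909, adjusted p = 3.68e-06), and dac, a leg and eye gene, by 0.85 to a dim level. Those falls numbered 5 without either driver array or both-transgene array 1, and 3 without both-transgene array 2.

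Testis genes did not move one way against the act-Gal4 control, with 14 of 55 higher and 12 lower (25.5% and 21.8%), beside 18.2% and 17.1% of all genes. vis, a meiotic arrest gene of spermatocytes, fell by −1.24 ± 0.164 (adjusted p = 0.000171), ATPsynbetaL, a testis form of an ATP synthase subunit, fell by 1.11, both to a dim level, and Mst87F, a sperm tail protein gene, rose by 0.81. Rises numbered 8 without driver array 1, 8 without driver array 2 and 7 without both-transgene array 2. Falls numbered 7 without driver array 1, 6 without driver array 2 and 5 without both-transgene array 1. With the P control as reference, 4 testis genes were higher and 20 lower, beside 18.3% and 14.1% of all genes. The median of the list was then −0.22. Its summed intensity was 12006 and 12134 in act-Gal4 control males, 14462 and 14813 in males with both transgenes and 16328 and 16374 in P control males. Of 27 ovary and germline genes, 16 were dim in both groups, 8 rose and 2 fell, with tud, a germ plasm gene, from 9.54 and 9.49 to 10.51 and 10.49 and exu, an mRNA localization gene, from 9.21 and 9.31 to 8.54 and 8.44. Among 15 sex determination genes 5 rose and 3 fell. The switch gene Sxl rose by 0.61 and tra2, another gene of the list, fell by 0.66, while fru had probesets called in opposite directions. The falls on that list numbered 1 without driver array 2 or both-transgene array 1, and 5 with male arrays only.

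Detoxification genes fell more often than they rose, 25 and 14 of 87. The cytochrome P450 genes Cyp6a17 and Cyp6w1 rose by 1.27 and 1.27 and Cyp4s3 fell by 1.04 to a dim level, while the glutathione transferase genes GstD10 and GstE7 fell by 0.90 and 0.84. Against the P control 29 were higher and 10 lower, beside 18.3% and 14.1% of all genes, and GstE7 changed by 0.94. The rises against the driver control numbered 9 without driver array 2 and 8 without both-transgene array 2.

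**Figure D4:**
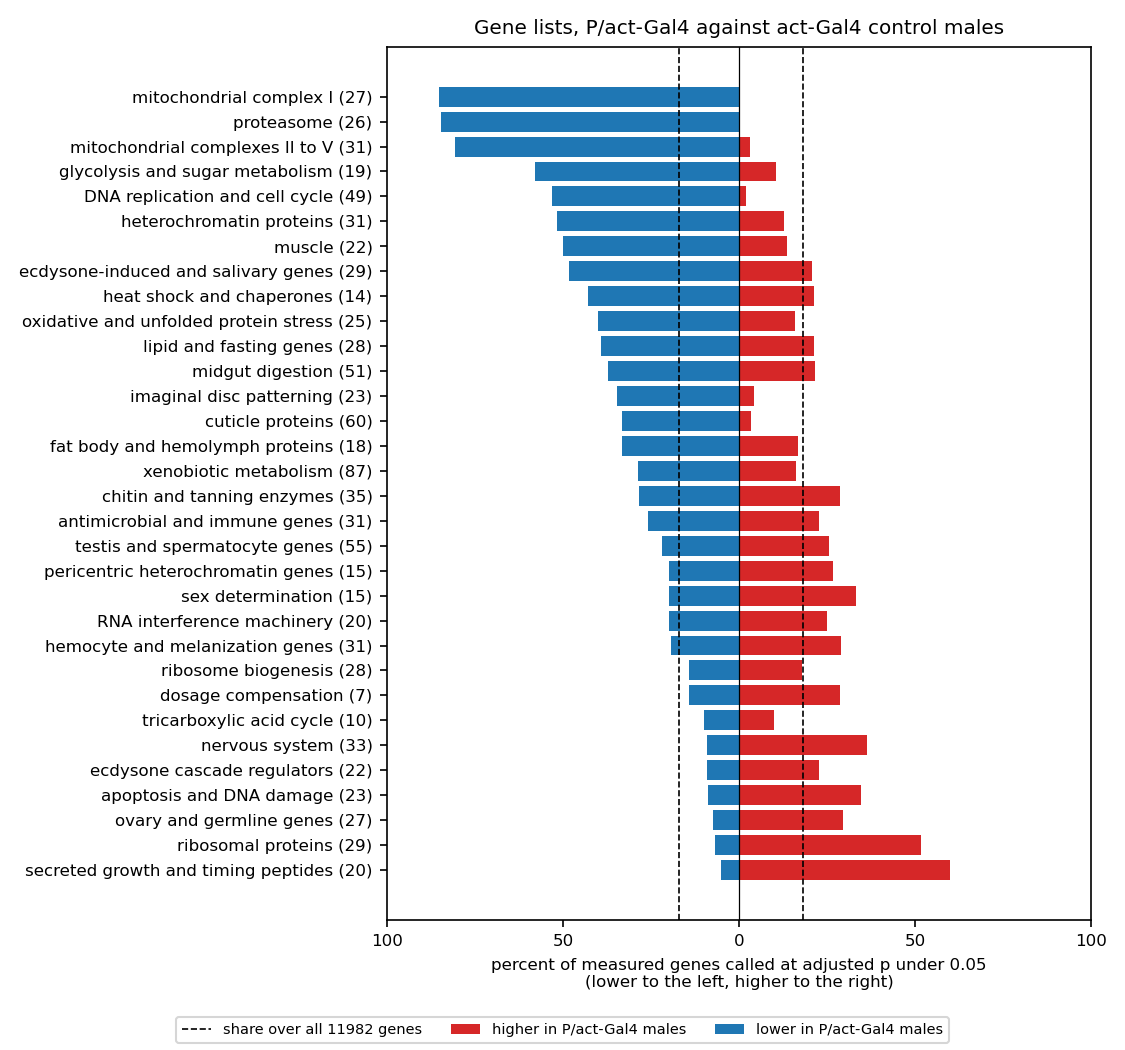
Share of each list's measured genes (number in brackets) called lower (left, blue) or higher (right, red) in P/act-Gal4 than in act-Gal4 control males, in percent, with dashed lines at the shares over all 11982 genes. Complex I, the proteasome and complexes II to V reach 85.2%, 84.6% and 80.6% lower, and the secreted peptides and ribosomal proteins reach 60.0% and 51.7% higher.

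How the driver control compares with the P control bears on all of these values. Against P control males, 4827 probesets differed in P/act-Gal4 males (25.7%). The 2 male controls themselves differed in 3455 probesets (18.4%). For the HP1 transcript the change against the P control was −0.37 (adjusted p = 0.0264), and the P control lay 0.32 below the act-Gal4 control (adjusted p = 0.0674, by limma). The P/act-Gal4 arrays are shared by both comparisons, so the values are set side by side only. Genes displaced from both controls included Def (2.58 and 2.61 against the driver and the P control), e (2.04 and 1.93), ImpE2 (−4.07 and −3.46) and Sgs1 (−2.27 and −2.03). Genes displaced mainly from the driver control included Acbp3 (−2.47 and −0.45) and Jon25Bi (−2.38 and −0.69). In both genes the P controls, which lack the driver, stood nearer to the P/act-Gal4 males than to the act-Gal4 control males. Without both-transgene array 2 the count against the P control was 3016.

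In females the same contrast rests on 1 P/act-Gal4 array against 2. That array has no spread of its own and borrows that of the other groups, so the p-values of the female change and of the difference between the sexes assume that it varied as they did. The fit called 2326 probesets (12.4%) in females. The male and the female change differed in 1725 probesets (9.19%), and in 965 to 1084 when any 1 of the 4 male arrays was left out. The HP1 transcript read 8.04 and 8.03 in act-Gal4 control females and 8.02 on the P/act-Gal4 female array, a change of −0.016 (adjusted p = 0.959). The difference between the male and the female change was −0.67 ± 0.172 (adjusted p = 0.0321, by limma). It kept its sign but lost the call without driver array 1 (−0.69, adjusted p = 0.0832) or 2 (−0.65, adjusted p = 0.0986), female driver array 1 (−0.68, adjusted p = 0.0627) or 2 (−0.67, adjusted p = 0.0713), or both-transgene array 2 (−0.51, adjusted p = 0.0906). Def rose in males and read 5.49 and 5.46 against 5.04 in females, a change of −0.43 (adjusted p = 0.041, by limma), and ImpE2 fell in males and read 7.01 and 7.05 against 7.12. For both genes the difference between the sexes was called (3.01 ± 0.158, adjusted p = 1.60e-06, and −4.16 ± 0.144, adjusted p = 5.64e-08, by limma). The change of e in females was 1.74, of Jig 2.30 and of Cpr47Eg −2.82, and for these the difference between the sexes was 0.30, 0.30 and −0.018 (adjusted p = 0.273, 0.562 and 0.966 by limma). By list, the difference was called for 9 of 26 proteasome genes, 12 of 31 hemocyte genes, 13 of 29 ecdysone-induced and salivary genes and 1 of 27 complex I genes, beside 11.8% of all genes. The female medians were −0.02 for the proteasome, −0.42 for complex I and 0.10 for heterochromatin proteins.

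**Figure D5:**
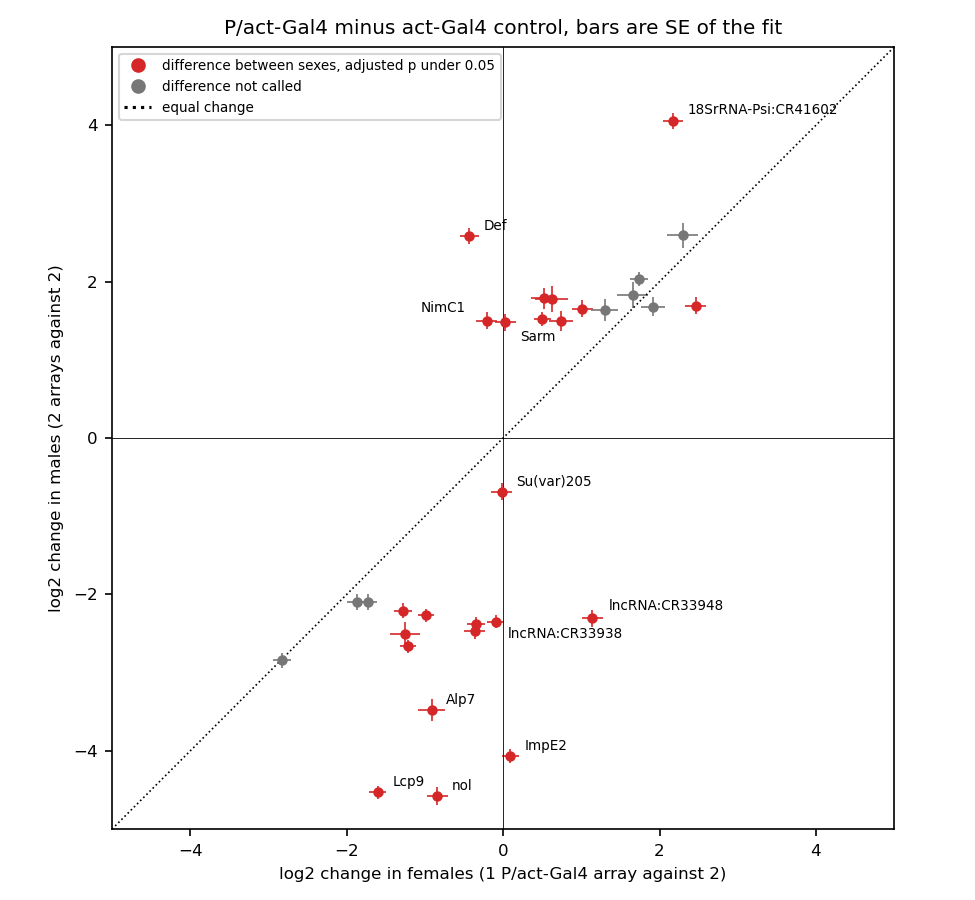
Log2 change between P/act-Gal4 and act-Gal4 control in males (y axis) against females (x axis, 1 P/act-Gal4 array) for the 15 largest rises, the 15 largest falls and the HP1 gene, with bars for the SE of the fit. Points on the dotted line would have changed equally; ImpE2 and the HP1 gene sit near 0 on the female axis at 0.094 and −0.016, and Def at −0.43, opposite in sign to its male change.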

How the data were processed

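The authors deposited 1 intensity per probeset and array on the linear scale, summarized with RMA per the submitters' processing notes; its version and whether all arrays were normalized together are not given in the sources used here. Log2 was taken of all 18952 probesets with no pseudocount, and 183 Affymetrix control probesets were left out, leaving 18769. Of these, 13647 have 1 gene in the platform table, 402 several and 4720 none; symbols and arms came from RefSeq's gene table, with an arm for 11892 of 11982 genes. Genes with several probesets were read from the one of highest mean signal.

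With limma 3.58.1 (R 4.3.3), lmFit and eBayes fitted the means of 6 groups over all 11 arrays, with 5 residual and 6.29 prior degrees of freedom. The groups share 1 spread, which the single P/act-Gal4 female array borrows from the others. P-values were adjusted by Benjamini-Hochberg over all 18769 probesets, with calls under 0.05. Errors are standard errors of the fit. The number of arrays limits the precision. The procedure was tested on simulated data.

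Lists are described by counts and medians, without set tests. The comparison, the 34 lists and the dim level of 4.5, which was not tested, were chosen with earlier results of these data known. Named genes are the 15 largest rises and 15 largest falls among called genes with arrays not overlapping and a symbol other than a bare CG or CR number, the HP1 gene, up to 6 called members of each list, all members of lists with 12 or fewer measured genes, and the 5 largest differences between sexes in each direction. Among these, the list of transgene and strain markers had y alone measured, at 2.61 and 2.43 and 2.47 and 2.53, dim in both groups. Alternatives covered limma's options, the arrays fitted, normalization, low values, a pseudocount of 16, thresholds and each array left out. Figures were drawn with matplotlib 3.10.9.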

Additional observations from a re-analysis of the deposited data

Results flagged for a closer look

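The change between P/act-Gal4 and act-Gal4 control differed between the sexes in 1725 probesets by limma at an adjusted p under 0.05 (9.19%), where the female side rests on 1 P/act-Gal4 array with no spread of its own. Among the genes with the largest male change, among those with the largest difference and for the HP1 gene, the male minus the female log2 change was positive in 18SrRNA-Psi:CR41602 (1.89), Def (3.01), St4 (1.26), path (1.16), Sid (0.641), mthl4 (1.02), NimC1 (1.71), shep (0.758), Sarm (1.45), Apoltp (2.01), Nplp2 (2.15) and Phae2 (1.79). It was negative in Eig71Ea (−0.768), nol (−3.74), Lcp9 (−2.93), ImpE2 (−4.16), Alp7 (−2.56), Nplp4 (−1.45), Cpr92F (−1.25), Acbp3 (−2.10), Jon25Bi (−2.03), lncRNA:CR33938 (−2.25), lncRNA:CR33948 (−3.44), Sgs1 (−1.28), Lcp65Ac (−0.929) and the HP1 gene (−0.673). The call for the HP1 gene was lost without either act-Gal4 control male array (adjusted p = 0.0832 and 0.0986), either act-Gal4 control female array (0.0627 and 0.0713) or P/act-Gal4 male replicate 2 (0.0906). Of the genes named from the lists, 59 had a change that differed between the sexes.

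Nplp2, a fat body peptide gene, read 6.98 and 6.998 in act-Gal4 control males and 7.68 and 7.78 in P/act-Gal4 males, and 8.42 and 8.41 against 7.004 in females. Phae2, a serine protease gene, read 6.05 and 5.89 against 7.37 and 7.15 in males and 6.35 and 6.29 against 5.83 in females. Apoltp read 7.28 and 7.31 against 6.36 in females, with the opposite sign to its male change. Groups of 2 arrays are too small for a check of single arrays that stand apart.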

How the results depend on the processing

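Leaving out each of the 11 arrays in turn gave 3544 to 5651 probesets called against the act-Gal4 control males (5275 with all arrays), 3016 to 5260 against the P control males (4827) and 965 to 2052 for the difference between the sexes (1725), which cannot be had without the single P/act-Gal4 female array. The counts that moved by over 1.5 times were 3016 against the P control without P/act-Gal4 male replicate 2, and for the difference between the sexes 965 and 1000 without act-Gal4 control male replicates 1 and 2 and 978 and 1084 without P/act-Gal4 male replicates 1 and 2. The change of the HP1 gene ran from −0.85 to −0.53 and was called each time. Asking also for a log2 change of at least 1 left 549, 513 and 429 probesets. For the difference between the sexes, 2543 probesets passed at an adjusted p under 0.1, and log2 of the value plus 16 gave 2560. Limma's trend option, its robust option, array weights, male arrays only, the 4 arrays alone, a further quantile normalization, a shift to a common median, bright probesets and 1 probeset per gene kept the other counts within 1.5 times. Over the changes of named genes, 4274 values kept direction and call, 59 lost the call and 41 gained it. The sign turned in 6, none of them called: without P/act-Gal4 male replicate 2, msl-1 was −0.15 and msl-2 −0.018, against 0.18 and 0.12 without replicate 1. Without act-Gal4 control male replicate 1, Mdh1 was −0.016 and y 0.076, against 0.037 and −0.11 without replicate 2. For y the change was 0.013 without P/act-Gal4 male replicate 1 and 0.0093 after quantile normalization. The cause was not tested. For named genes, 193 differences between the sexes were unchanged in direction and call and 5 lost the call. Of list medians, 789 moved by less than the spread between replicates and 71 by more. No paired analysis was possible because the array titles carry a different number for every array and nothing ties an array to 1 of the 2 larval populations. Dim signals, 56.4% to 57.4% of probesets on male arrays, limit the sizes given for low genes.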
